A study of Mus musculus with 30 samples.

Results

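Dark zone (DZ) cells were compared with light zone (LZ) cells of the germinal centre (GC) in GFP+ IgG1 B cells of the mouse. The comparison took the 3 arrays titled as DZ and the 3 titled as LZ among IgG1 GFP+ cells, which are 6 of the 30 arrays of the series. All animals were CeGFP BALB/c mice, which carry an IRES-GFP cassette in the 3' untranslated region of the Cepsilon gene, and all were infected with Nippostrongylus brasiliensis. In these mice GFP is carried by IgE cells and by IgG1 cells that also rearranged to Cepsilon on the non-productive heavy chain allele. GFP therefore labels a history of recombination in the IgG1 cells used here and does not follow their expressed isotype. Mesenteric lymph nodes were taken on day 10 of infection, and 3 mice were pooled for each array, with an independent sort behind every replicate. DZ cells were sorted as IgG1+ GFP+ with high CXCR4 and low CD86, and LZ cells as IgG1+ GFP+ with low CXCR4 and high CD86. A second pair of populations, sorted the same way but IgG1+ GFP- (3 DZ and 3 LZ arrays), served for comparison. Populations of the study's other experiment were also used, all from infected CeGFP mice on day 10. These were GFP+ IgG1 GC cells not separated by zone (B220+ CD95+ CD138-, 3 arrays), naive B cells (B220+ CD95- CD138- without IgG1 or IgE, 3 arrays) and GFP+ IgG1 plasma cells (CD95+ CD138+, 2 arrays).

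GC B cells alternate between 2 compartments. In the dark zone they divide and their antibody genes are mutated. In the light zone they take up antigen from follicular dendritic cells, present it on MHC class II and compete for help from follicular T cells through CD40 and cytokines. The surface receptors CXCR4 and CD86 are the usual means of separating the zones in a sorter, as was done here. Their transcripts can therefore only check the labels. Cd86 was not set aside and is counted below among the genes higher in LZ cells.

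Values are log2 expression values on Affymetrix Mouse Gene arrays, 1 probe set per gene, and a difference is DZ minus LZ on that scale, so 1 stands for a factor of 2 and a positive value for a higher level in DZ cells. Of 19937 genes with a probe set of a single symbol, 11050 lay above the array's median on at least 3 of the 12 zone arrays and were tested with limma, and a gene was called at a Benjamini-Hochberg adjusted p under 0.05. The B cell genes Cd79a, Cd79b, Ms4a1 and Pax5 and the GC genes Bcl6, Fas, Gcsam and S1pr2 were above the median on all 12 arrays. Array medians were 5.29 to 5.37, and arrays of a GFP+ group correlated at 0.957 to 0.964 across genes. The 3 samples of a group limit the precision, and as these are bulk samples, fewer cells of a type and less RNA per cell cannot be told apart.

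Of the sort markers, Cd86 was at 9.05, 9.35 and 8.97 in DZ and at 10.22, 10.30 and 10.30 in LZ arrays, a difference of -1.15 (SE 0.13, adjusted p = 0.00291). Cxcr4 was at 11.23, 11.38 and 11.00 in DZ and at 11.01, 11.18 and 10.93 in LZ arrays. The Cd86 groups lay apart in the sorted direction. The Cxcr4 groups overlapped (0.17, 95% interval -0.18 to 0.51, adjusted p = 0.752), so its transcript did not separate arrays that were sorted on its protein.

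In GFP+ cells 135 genes differed between the zones, 1.22% of those tested. Of these, 53 (0.48%) had the higher level in DZ and 82 (0.742%) in LZ cells, and 65 differed at least 2-fold (26 higher in DZ, 39 in LZ). The 3 DZ arrays lay wholly above or below the 3 LZ arrays for each of the 135 genes. Over all genes tested, 8.73% had all DZ arrays above and 9.22% all LZ arrays above. Without the threshold on adjusted p, 1429 genes had a p under 0.05. The calls nearest the threshold were Tpx2 (0.86, adjusted p = 0.0494) and Atp10d (-0.63, 0.0499), and just outside lay Rgs1 (-1.18, 0.051) and Man1a (-0.85, 0.0525). The count rests on every array and on the spread shared with the GFP- groups. It was 69, 58 and 65 without DZ replicate 1, 2 or 3, and 88, 51 and 69 without LZ replicate 1, 2 or 3. A fit of the 6 GFP+ arrays alone called 17 genes. Every called gene kept its direction in each such fit, and 39 genes stayed called in all 6 fits that left out 1 GFP+ array.

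**Figure D1:**
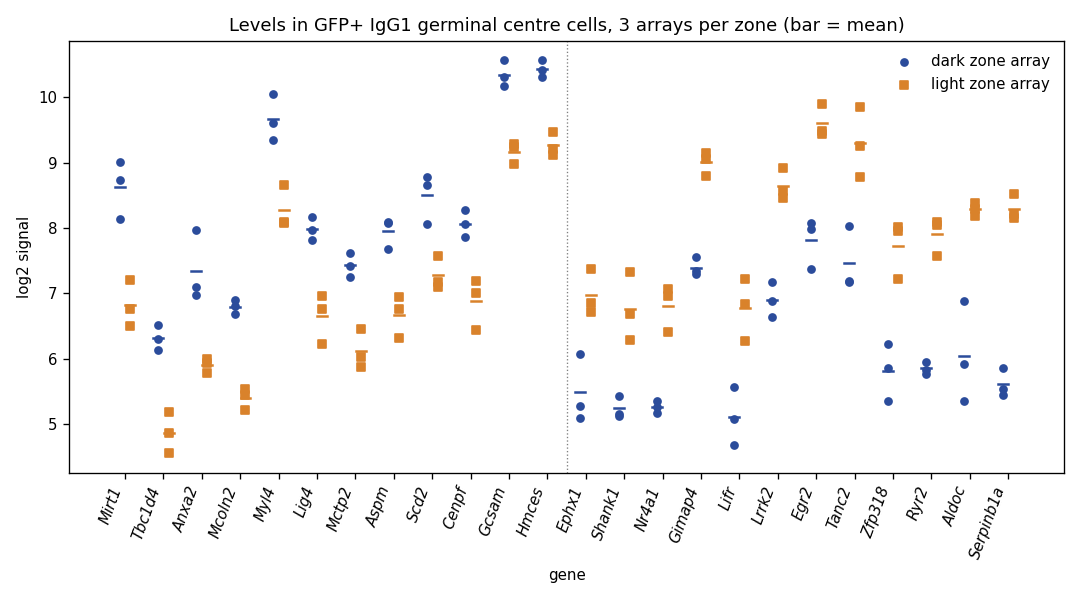
Log2 expression values of the 12 genes with the largest difference in each direction among those called in GFP+ IgG1 GC cells. Each point is 1 array (3 DZ, 3 LZ), and the bar is the mean of 3. In every gene shown the 3 DZ points and the 3 LZ points do not overlap, from Serpinb1a (-2.68) to Mirt1 (1.80).

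Lig4, Hmces and Polh, whose products act on broken, damaged or mutating DNA, were higher in dark zone cells. A separate list for hypermutation and DNA repair, which does not hold these 3 genes, had no call among 30 tested (1.22% over all genes). That absence of calls therefore does not cover them. Lig4, the ligase of non-homologous end joining, was at 8.17, 7.82 and 7.96 in DZ and at 6.96, 6.77 and 6.23 in LZ arrays (2.51-fold, difference 1.33, SE 0.19, adjusted p = 0.00656). Hmces, which shields abasic sites in single-stranded DNA, was at 10.57, 10.42 and 10.30 against 9.48, 9.22 and 9.12 (2.24-fold, 1.16, SE 0.16, adjusted p = 0.00656). Polh, the translesion polymerase that writes mutations at A and T bases during hypermutation, was at 10.08, 9.85 and 9.73 against 9.04, 9.09 and 8.73 (1.91-fold, 0.94, SE 0.16, adjusted p = 0.0153). In all 3 genes the lowest DZ array stood above the highest LZ array. The Polh call was lost without DZ replicate 1 or 2 or LZ replicate 3 (0.82 to 1.02 over all such fits, adjusted p up to 0.0662), while Lig4 and Hmces stayed called without any 1 array.

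These 3 genes belong to a list of 15 reported dark zone genes, of which 14 were tested. The list was drawn up with earlier results of these data known. In it 5 were higher in DZ cells (0.48% over all genes) and none was lower (0.742%). The median difference was 0.51, against -0.01 over all genes tested. The other 2 called members were Gcsam, a GC-restricted adaptor that restrains cell motility, and Nuggc, a GC-restricted nuclear GTPase. Gcsam was at 10.31, 10.57 and 10.17 in DZ and at 9.23, 8.97 and 9.28 in LZ arrays (2.27-fold, 1.18, SE 0.17, adjusted p = 0.00656). Nuggc differed by 0.74 (adjusted p = 0.0185). Members that did not pass included the zone transcription factor Foxo1 (0.08), Mybl1 (-0.02), Rgs13 (-0.31) and the uracil glycosylase Ung (0.29). The 30 tested genes for hypermutation and DNA repair had a median of 0.05, with 17 above and 13 below 0, and a range from -0.69 (Xrcc4) to 0.67 (Xrcc1). Xrcc4 encodes the partner protein of the Lig4 ligase. Depending on which array was left out, 3 to 5 members of the dark zone list were called.

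Genes of mitosis were higher in dark zone cells. All 63 tested genes of a G2/M list had a difference above 0 (62 after a further quantile normalization), with a median of 0.49, while over all genes 5431 of 11050 lay above 0. For 32 of the 63 all DZ arrays lay above all LZ arrays (8.73% over all genes), and 7 passed the test (0.48% over all genes). Cenpf, a kinetochore protein, was at 8.28, 7.86 and 8.06 in DZ and at 7.01, 6.44 and 7.19 in LZ arrays (2.28-fold, 1.19, SE 0.19, adjusted p = 0.00937). Cdc25b, the phosphatase that activates CDK1 at mitotic entry, was at 8.80, 8.40 and 8.73 against 7.85, 7.05 and 7.70 (1.11, SE 0.22, adjusted p = 0.028). Ska3, which couples kinetochores to microtubules, was at 8.51, 8.12 and 7.94 against 7.33, 7.11 and 7.03 (2.05-fold, 1.03, SE 0.20, adjusted p = 0.0253). In these 3 genes LZ replicate 2 or 3 was the lowest array. Cdc20, the activator of the anaphase-promoting complex, was at 8.82, 8.60 and 8.94 against 8.08, 7.66 and 7.71 (1.96-fold, 0.97, SE 0.21, adjusted p = 0.0411). The other calls were the mitotic cyclin Ccnb2 (0.86), the kinesin Cenpe (0.95) and the spindle factor Tpx2 (0.86). Aspm, a spindle pole protein outside the list, was at 8.08, 7.68 and 8.10 against 6.94, 6.32 and 6.76 (2.43-fold, 1.28, SE 0.19, adjusted p = 0.00937).

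Several well-known mitotic genes had large differences that did not pass. The mitotic kinase Plk1 was at 9.90, 9.06 and 9.56 in DZ and at 8.55, 8.02 and 8.69 in LZ arrays (1.09, adjusted p = 0.064). Hmmr differed by 1.21, Nek2 by 1.00 and Cdc25c by 0.98. At the other end of the list Aurkb differed by 0.01 and Kif18a by 0.08. Mki67, the proliferation marker, was at 10.92, 10.62 and 10.90 in DZ and at 10.45, 10.15 and 10.37 in LZ arrays (0.49, 95% interval 0.19 to 0.78, adjusted p = 0.124). In both zones Mki67 lay far above the array medians of 5.29 to 5.37. The number of called members of the list was 1 to 4 without any 1 of the 6 GFP+ arrays. The Cdc20 call was lost without any of them, the Cdc25b call without all but LZ replicate 1, and the Ska3 call without DZ replicate 1 or 2 or LZ replicate 2 or 3. The Cenpf and Aspm calls stayed.

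**Figure D2:**
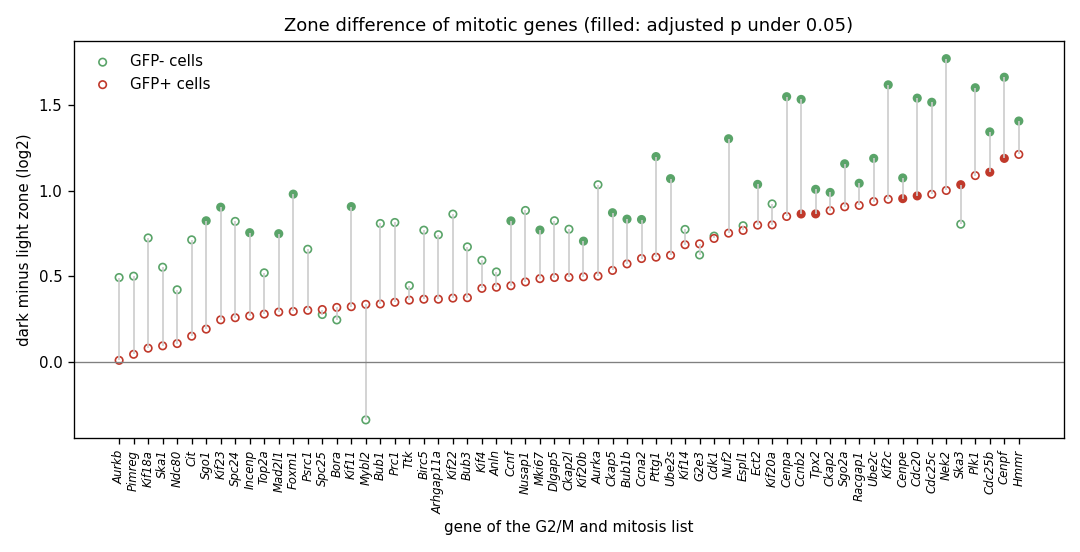
DZ minus LZ log2 difference of each of the 63 tested G2/M genes in GFP+ and in GFP- IgG1 GC cells, ordered by the GFP+ value, with filled points for an adjusted p under 0.05. All 63 GFP+ values lie above 0 (62 after a further quantile normalization), with a median of 0.49, and the GFP- median is 0.82.

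Many mitotic genes share a promoter element, the cell cycle genes homology region, with the core TTTGAA, at which the repressor complex DREAM and its activating counterparts bind. The core was searched on both strands in RefSeq promoter windows of 250 bases before to 50 after the start (GRCm38.p6). It was present for 34 of the 51 G2/M genes with a window (66.7%), against 14% of the tested genes with a window, 25.5% of those higher in DZ and 10.9% of those higher in LZ cells. CCAAT was present for 70.6% of the G2/M genes and 42.2% of all tested genes. The following windows, 5' to 3' along the gene's strand with the core or its reverse complement in capitals, show the element in called genes (Cdc20, Ccnb2) and in genes of the list that were not called. They come from chr4:118437344-118437373 (minus strand), chr9:70421704-70421733 (minus), chr10:69352966-69352995 (minus), chr2:164769888-164769917 (plus) and chr7:135716478-135716507 (minus).
Cdc20: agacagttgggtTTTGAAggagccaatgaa
Ccnb2: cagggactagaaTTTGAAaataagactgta
Cdk1: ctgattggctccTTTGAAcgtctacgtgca
Ube2c: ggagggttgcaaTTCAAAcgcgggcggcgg
Mki67: ttagcgccagaaTTTGAAccgccgttttgg
A match is a description of these letters and not of a bound site. Within the G2/M list the median difference was 0.52 for the 34 genes with the core and 0.47 for the 17 without, which were close to each other.

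Replication genes gave no call. Of 38 tested G1/S and replication genes none was called (1.22% over all genes). A list this short can hold no call at that share. The median was 0.14, and 31 lay above 0 (27 after a further quantile normalization). All DZ arrays lay above all LZ arrays for 8 of the 38 (8.73% over all genes), and the reverse held for 1 (9.22%). Gins1 had the highest value (0.70) and the thymidine kinase Tk1 the lowest (-0.91). Among D cyclins and CDK inhibitors 1 of 18 was called (1.22% over all genes). This was Ccnd2, a G1 cyclin, at 6.27, 5.95 and 6.63 in DZ and at 7.03, 7.31 and 7.50 in LZ arrays (2.00-fold, -1.0, SE 0.21, adjusted p = 0.0341). Ccnd3, a G1 cyclin of the dark zone list known for expansion of GC cells in the dark zone, was at 9.86, 10.13 and 10.16 against 9.45, 9.63 and 9.46 (0.53, 95% interval 0.20 to 0.87, adjusted p = 0.133). The D cyclins thus had differences of opposite sign, and only that of Ccnd2 passed. Its call was lost without DZ replicate 1 or 2 or LZ replicate 2 or 3 (-1.17 to -0.83, adjusted p up to 0.134).

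The largest dark zone differences among called genes were in genes with other roles. Mirt1, a long non-coding RNA, was at 9.01, 8.74 and 8.14 in DZ and at 6.50, 7.21 and 6.76 in LZ arrays (3.49-fold, 1.80, SE 0.28, adjusted p = 0.00937). Tbc1d4, a Rab GTPase activator known from glucose transporter trafficking, was at 6.51, 6.30 and 6.14 against 5.18, 4.55 and 4.87 (2.73-fold, 1.45, SE 0.22, adjusted p = 0.00937). Mcoln2, a cation channel of endosomes and lysosomes, was at 6.80, 6.69 and 6.90 against 5.44, 5.54 and 5.22 (2.64-fold, 1.40, SE 0.19, adjusted p = 0.00656). The 3 LZ values of Tbc1d4 and LZ replicate 3 of Mcoln2 lay below their array medians, so both folds are set against levels near the floor of the filter. Mirt1, Tbc1d4 and Mcoln2 stayed called without any 1 array. Anxa2, a calcium-dependent membrane-binding protein, was at 7.10, 7.96 and 6.98 against 6.0, 5.94 and 5.79 (2.71-fold, 1.44, SE 0.30, adjusted p = 0.0368). Myl4, a myosin light chain, was at 9.35, 9.61 and 10.06 against 8.66, 8.08 and 8.09 (2.63-fold, 1.40, SE 0.23, adjusted p = 0.0118). Mctp2, a membrane protein with calcium-binding C2 domains, differed by 1.31 (2.49-fold, adjusted p = 0.0181). Anxa2 lost its call without any 1 of the 6 GFP+ arrays (1.13 to 1.62, adjusted p up to 0.128), Myl4 without DZ replicate 3 or LZ replicate 2 or 3 (adjusted p up to 0.0681), and Mctp2 without DZ replicate 1 or 3 or LZ replicate 2 or 3 (up to 0.0875).

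Of the plasma cell list, 1 of 14 tested genes was called (1.22% over all genes). Jchain, the chain that joins IgM and IgA units and that GC cells also transcribe, was at 10.98, 10.87 and 11.05 in DZ and at 10.03, 9.99 and 10.21 in LZ arrays (1.85-fold, 0.89, SE 0.13, adjusted p = 0.00656). The rest of that list had a median near that of all genes (-0.00 for the list), with the secretory factor Xbp1 at 0.14 and the chaperone Hspa5 at -0.24. Prdm1, the repressor that drives plasma cell fate, was not tested and lay between 4.41 and 5.38 on the 6 GFP+ arrays. Only LZ replicate 3 of these reached its array's median.

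Metabolic genes showed single calls. Scd2, a fatty acid desaturase, was at 8.78, 8.07 and 8.66 in DZ and at 7.58, 7.18 and 7.10 in LZ arrays (2.33-fold, 1.22, SE 0.23, adjusted p = 0.0216). Msmo1, an oxidase of cholesterol synthesis, was at 7.75, 7.16 and 7.33 against 8.23, 8.10 and 8.58 (1.85-fold, -0.89, SE 0.17, adjusted p = 0.0253). They were the 2 calls, in opposite directions, among 20 tested genes of a list for cholesterol synthesis and uptake (1.22% over all genes). Of the 20, 17 lay below 0, and the median was -0.22. Aldoc, a glycolytic aldolase, was at 6.88, 5.35 and 5.91 in DZ and at 8.39, 8.29 and 8.19 in LZ arrays (4.74-fold, -2.24, SE 0.33, adjusted p = 0.00656). It was the only call among 17 glycolysis genes (median -0.23, 1.22% called over all genes), and its close relative Aldoa differed by -0.08. Of 30 oxidative phosphorylation genes none was called (1.22% over all genes), although 27 lay above 0 (median 0.31). All DZ arrays lay above all LZ arrays for 13 of the 30 (8.73% over all genes), and the reverse held for none (9.22%). Ephx1, a microsomal epoxide hydrolase, was at 5.09, 5.28 and 6.08 against 6.71, 6.85 and 7.37 (2.82-fold, -1.50, SE 0.30, adjusted p = 0.0309). Its DZ replicates 1 and 2 lay below their array medians, so its fold is set against a level near the floor of the filter. Scd2 lost its call without DZ replicate 1 or 3 or LZ replicate 2 or 3 (adjusted p up to 0.0975), Msmo1 without all but DZ replicate 1 (up to 0.0982) and Ephx1 without all but DZ replicate 3 (up to 0.126). Aldoc stayed called.

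**Figure D3:**
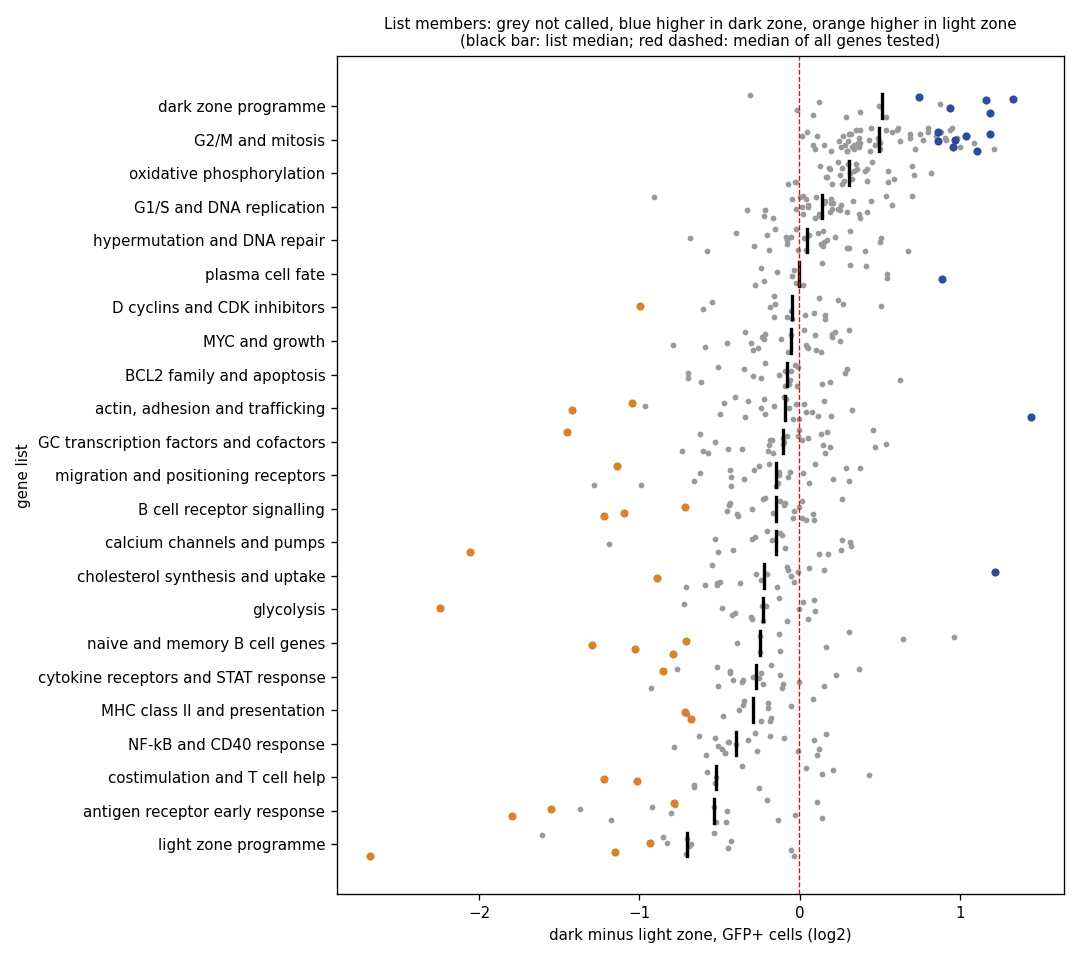
DZ minus LZ log2 difference in GFP+ IgG1 GC cells of every tested gene of each list (x axis), 1 row per list and 1 point per gene. Blue points were called higher in DZ, orange points higher in LZ and grey points not called, the black bar is the list median and the dashed line the median of all genes tested; among the lists shown the dark zone list (0.51) and the G2/M list (0.49) have the highest medians and the light zone list (-0.70) the lowest.

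Of 17 tested early response genes, which are induced through the antigen receptor, 3 were higher in light zone cells (0.742% over all genes) and 14 did not pass. Egr2 and Egr3 are zinc finger factors, and Nr4a1 is an orphan nuclear receptor often used to read out receptor signalling. Egr2 was at 7.37, 8.08 and 7.98 in DZ and at 9.44, 9.48 and 9.89 in LZ arrays (3.47-fold, -1.80, SE 0.26, adjusted p = 0.00656). Nr4a1 was at 5.26, 5.17 and 5.35 against 6.97, 7.06 and 6.41 (2.93-fold, -1.55, SE 0.19, adjusted p = 0.00342). Egr3 was at 6.74, 6.85 and 7.07 against 7.34, 7.81 and 7.86 (1.72-fold, -0.79, SE 0.16, adjusted p = 0.0293). All 3 DZ values of Nr4a1 lay below their array medians (SD 0.09), so its fold is set against a level near the floor of the filter, and its LZ values lay above the medians. The median of the list was -0.53, with 15 genes below 0. Cd69 (-1.37), Rgs1 (-1.18) and Egr1 (-0.78) did not pass, and the AP-1 genes Fos (-0.03), Jun (-0.20) and Fosb (0.10) were near 0. Egr3 lost its call without all but LZ replicate 1 (adjusted p up to 0.138), while Egr2 and Nr4a1 kept theirs.

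The DNA letters read by EGR factors, GCGNGGGCG, were searched in the same promoter windows on both strands. They were present for 15.6% of the genes higher in LZ cells with a window, against 6.38% of those higher in DZ cells and 11.9% of all tested genes. Windows of Nr4a1 (chr15:101266776-101266805, plus strand) and of the cytokine receptor gene Lifr (chr15:7129471-7129500, plus strand), both higher in LZ cells, are shown with the motif or its reverse complement in capitals.
Nr4a1: gcgtcagtggCGCCCCCGCccctctccatg
Lifr: ggagaaggctGCGGGGGCGcgcggggcggg
The share in LZ-higher genes was near that of all tested genes.

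Genes that respond to CD40 through NF-kB leaned towards the light zone without a call. None of the 21 tested was called (1.22% over all genes), 17 had a difference below 0, and the median was -0.40. Nfkbia, the feedback inhibitor of NF-kB, was at 7.88, 8.57 and 8.32 in DZ and at 8.90, 8.98 and 9.24 in LZ arrays (-0.79, adjusted p = 0.16). The subunits Nfkb2 (-0.63) and Rel (-0.40) likewise did not pass. For 9 of the 21 all LZ arrays lay above all DZ arrays, against 9.22% of all genes. Cd40 itself was at 8.81, 8.64 and 8.52 against 9.36, 9.47 and 9.27 (-0.71, adjusted p = 0.149). The NF-kB consensus was present in 7 of the 19 promoter windows of this list (36.8%), against 6.07% of tested genes. The windows of Nfkbia (chr12:55492657-55492686, minus strand) and Rel (chr11:23771042-23771071, minus strand) and of the called gene Ifngr2 (chr16:91546974-91547003, plus strand) show in capitals the consensus (Rel) or its reverse complement (Nfkbia and Ifngr2).
Nfkbia: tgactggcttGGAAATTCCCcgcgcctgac
Rel: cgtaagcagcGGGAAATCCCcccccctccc
Ifngr2: ggaacaccggGGAAAGTCCCcacgggccgg
The median difference was -0.51 for the 7 genes of the list with the consensus and -0.23 for the 12 without.

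Serpinb1a, an inhibitor of neutrophil serine proteases and a reported light zone gene, had the largest difference of all tested genes. It was at 5.86, 5.54 and 5.45 in DZ and at 8.16, 8.53 and 8.21 in LZ arrays (6.41-fold, -2.68, SE 0.32, adjusted p = 0.00291). Its DZ values lay close above their array medians (5.32 to 5.36), so its fold is set against a level near the floor of the filter. All 15 tested genes of the light zone list, drawn up with earlier results of these data known, lay below 0 (median -0.70). Of them 3 were called (0.742% over all genes), the others being Cd83 and Slamf1. Cd83, an activation marker of antigen-presenting cells, was at 10.53, 11.14 and 10.70 against 11.88, 12.03 and 11.92 (2.23-fold, -1.16, SE 0.18, adjusted p = 0.00937). Slamf1, a receptor for contact with T cells, was at 9.22, 9.62 and 9.26 against 10.35, 10.20 and 10.35 (1.91-fold, -0.93, SE 0.15, adjusted p = 0.00937). In these genes every LZ array lay above every DZ array, and the calls stayed without any 1 array. The factor Irf4, which at high dose drives exit from the GC, was at 5.91, 5.24 and 5.47 in DZ and at 7.03, 6.97 and 7.44 in LZ arrays (-1.61, 95% interval -2.39 to -0.83, adjusted p = 0.0553). Its arrays lay apart although it did not pass. Batf (-0.83, adjusted p = 0.178) and the oxysterol receptor gene Gpr183 (-0.85, adjusted p = 0.115) also did not pass.

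Of 13 tested genes of costimulation and T cell help, 2 were higher in light zone cells (0.742% over all genes), and 4 had a difference above 0. Tnfrsf14, which encodes HVEM, the ligand of the inhibitory receptor BTLA, was at 7.75, 7.91 and 8.43 in DZ and at 8.84, 9.52 and 9.38 in LZ arrays (2.33-fold, -1.22, SE 0.20, adjusted p = 0.0111). Pdcd1lg2, which encodes PD-L2, a ligand of PD-1, was at 6.30, 6.58 and 6.79 against 7.90, 7.44 and 7.38 (2.02-fold, -1.01, SE 0.19, adjusted p = 0.0232). The median of the list was -0.53. The PD-1 ligand Cd274 (-0.66) and the ICOS ligand Icosl (-0.53) did not pass. Both calls were lost without certain arrays, Tnfrsf14 without DZ replicate 1 or 2 or LZ replicate 2 or 3 (adjusted p up to 0.0595) and Pdcd1lg2 without replicate 1 or 2 of either zone (up to 0.0914).

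For antigen presentation, the class II transactivator Ciita was at 9.46, 9.51 and 9.71 in DZ and at 10.21, 10.11 and 10.37 in LZ arrays (1.60-fold, -0.68, SE 0.14, adjusted p = 0.0368). Ifi30, a thiol reductase that unfolds antigen in lysosomes, was at 10.99, 10.92 and 10.93 against 11.58, 11.65 and 11.75 (1.64-fold, -0.72, SE 0.13, adjusted p = 0.0216). The DZ and LZ values of both lay apart. They were the 2 calls among 14 tested genes (1.22% over all genes), of which 13 lay below 0 (median -0.29). The class II genes themselves had smaller differences that did not pass, with H2-Aa at -0.18 and the invariant chain gene Cd74 at -0.20, both highly expressed in each zone. Without any 1 of the 6 GFP+ arrays neither Ciita (adjusted p up to 0.139) nor Ifi30 (up to 0.0871) was called.

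Of 24 tested genes of B cell receptor signalling, 3 were higher in light zone cells (0.742% over all genes), and the median of the list was -0.15. Cd72, an inhibitory co-receptor, was at 8.85, 8.62 and 9.04 in DZ and at 10.06, 9.999 and 10.11 in LZ arrays (2.33-fold, -1.22, SE 0.14, adjusted p = 0.00291). Cr2, the complement receptor that binds antigen held by follicular dendritic cells, was at 9.37, 9.40 and 9.42 against 10.36, 10.54 and 10.57 (2.14-fold, -1.10, SE 0.13, adjusted p = 0.00291). Pik3ap1, the adaptor that links the receptor to PI3 kinase, was at 9.75, 9.35 and 9.68 against 10.26, 10.36 and 10.31 (1.65-fold, -0.72, SE 0.15, adjusted p = 0.0309). The receptor's own chains Cd79a (-0.09) and Cd79b (0.09) did not pass, and 6 of the 24 genes had a difference above 0. Ptprc, which encodes CD45 and the B220 form, was at 11.34, 11.29 and 11.15 against 11.61, 11.65 and 11.68 (-0.39, adjusted p = 0.15). Pik3ap1 lost its call without any 1 of the 6 GFP+ arrays (adjusted p up to 0.134).

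Of 13 tested genes on a list for naive and memory B cells, 4 were higher in light zone cells (0.742% over all genes). The list median was -0.25, and 4 others had a difference above 0, up to 0.96. Fcer2a, the low-affinity IgE receptor CD23, was at 10.76, 10.89 and 10.86 in DZ and at 11.76, 11.88 and 11.97 in LZ arrays (2.04-fold, -1.03, SE 0.14, adjusted p = 0.00656). Bank1, an adaptor of the B cell receptor, was at 9.93, 9.82 and 9.92 against 10.68, 10.72 and 10.64 (1.73-fold, -0.79, SE 0.12, adjusted p = 0.00937). Bcl11a, a transcription factor of B cell development, was at 9.86, 9.55 and 9.63 against 10.15, 10.54 and 10.48 (1.64-fold, -0.71, SE 0.15, adjusted p = 0.0383). For the Fcer2a and Bank1 groups the gap between zones was larger than the whole range within either zone. Ms4a4c was at 5.98, 6.66 and 6.64 against 7.79, 7.63 and 7.75 (2.46-fold, -1.30, SE 0.20, adjusted p = 0.00937), a value that is uncertain because the Ms4a4 genes are close copies. Zfp318, outside the list, the factor needed for surface IgD on mature B cells, was at 5.36, 5.86 and 6.23 against 7.22, 7.95 and 8.01 (3.76-fold, -1.91, SE 0.30, adjusted p = 0.00937). Bcl11a lost its call without all but LZ replicate 1 (adjusted p up to 0.169), and the other genes of this paragraph kept theirs. In the study's other experiment Bank1 (1.19) and Ms4a4c (3.43) were called higher in naive than in GC cells. Fcer2a (0.75) and Bcl11a (0.47) were not called there.

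After Serpinb1a the largest light zone differences were in Aldoc, described above, and Ryr2. Ryr2, a calcium release channel best known from heart muscle, was at 5.77, 5.95 and 5.83 in DZ and at 8.05, 8.10 and 7.58 in LZ arrays (4.16-fold, -2.06, SE 0.17, adjusted p = 0.000221). It was the only call among 18 calcium channel and pump genes (1.22% over all genes). The store-operated channel genes Orai1 (-0.13) and Stim1 (-0.30) did not pass. Dock10, an exchange factor for the GTPases CDC42 and RAC, was at 9.25, 9.23 and 9.14 against 10.57, 10.65 and 10.66 (2.68-fold, -1.42, SE 0.12, adjusted p = 0.000221). Capg, an actin-capping protein, was at 6.16, 6.39 and 6.21 against 7.34, 6.98 and 7.57 (2.07-fold, -1.05, SE 0.21, adjusted p = 0.0309). Dock10 and Capg were the calls towards LZ among 26 genes of actin and adhesion (0.742% over all genes), of which Anxa2 was the call towards DZ. The scaffold genes Tanc2 (3.57-fold, -1.84, adjusted p = 0.0237) and Shank1 (2.88-fold, -1.53, adjusted p = 0.00997), known from synapses, were higher in LZ cells as well. Shank1 was at 5.15, 5.44 and 5.13 in DZ arrays, close to the array medians. Capg lost its call without all but LZ replicate 2 (adjusted p up to 0.122) and Tanc2 without DZ replicate 1 or 2 or LZ replicate 2 or 3 (up to 0.111).

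Among positioning receptors 1 of 25 was called (1.22% over all genes). S1pr3, a receptor for sphingosine 1-phosphate, was at 7.76, 7.31 and 7.84 in DZ and at 8.64, 9.02 and 8.66 in LZ arrays (2.20-fold, -1.14, SE 0.20, adjusted p = 0.0153). The GC-confining receptor S1pr2 differed by 0.20 (95% interval -0.08 to 0.49, adjusted p = 0.569). Cxcr5, which draws B cells towards the follicle and the light zone, was at 8.18, 8.72 and 8.64 against 8.69, 9.14 and 9.03 (-0.44, adjusted p = 0.382), and its groups overlapped. Ccr6 (-1.28) did not pass. S1pr3 lost its call without DZ replicate 2 or LZ replicate 2 (adjusted p up to 0.0802).

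Cytokine receptor genes gave 1 call among 22 (1.22% over all genes). Ifngr2, the signalling chain of the interferon gamma receptor, was at 8.52, 8.51 and 8.47 in DZ and at 9.21, 9.59 and 9.26 in LZ arrays (1.81-fold, -0.85, SE 0.15, adjusted p = 0.0174). The receptors for the cytokines of follicular T cells, Il4ra (-0.52) and Il21r (-0.41), did not pass. Lifr, the receptor of leukaemia inhibitory factor, outside the list, was at 5.56, 5.08 and 4.68 against 6.84, 7.21 and 6.27 (3.17-fold, -1.66, SE 0.29, adjusted p = 0.0171). Its DZ replicates 2 and 3 lay below their array medians, so its fold is set against a level near the floor of the filter. Ifngr2 lost its call without any 1 DZ array or LZ replicate 2 (adjusted p up to 0.0837), and Lifr without DZ replicate 2 or 3 or LZ replicate 1 or 2 (up to 0.0837).

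The remaining large light zone differences were in Lrrk2 and Gimap4. Lrrk2, a kinase known from familial Parkinson's disease that B cells also express, was at 6.89, 7.17 and 6.64 in DZ and at 8.56, 8.92 and 8.45 in LZ arrays (3.36-fold, -1.75, SE 0.18, adjusted p = 0.00155). Gimap4, a GTPase that T cells express strongly, was at 7.35, 7.55 and 7.29 against 8.79, 9.06 and 9.16 (3.05-fold, -1.61, SE 0.23, adjusted p = 0.00656). Both calls stayed without any 1 array. The Lrrk2 fold rests on 1 of 2 probe sets. The other, with a lower mean level (5.18 against 8.01), differed by -0.36. Lrrk2 was called in 21 of 22 alternative settings, with a difference as small as -1.05 and a limma adjusted p up to 0.113. Gimap genes are close relatives, so probes may be shared. Of 16 T cell markers on the array, 10 were tested and none was called (1.22% over all genes). The mean level of the list was 5.18 to 5.60 on DZ and 5.50 to 5.77 on LZ arrays. Cd3e was at 7.04, 6.36 and 7.03 against 7.79, 7.38 and 7.33 (-0.68), while Cd4, Il21, Pdcd1, Cd40lg and Gata3 were below the median on all 12 arrays. The part of T cell RNA in the light zone differences was not tested. Macrophage and dendritic cell markers had a mean level of 4.69 to 4.79 on DZ and 4.75 to 4.93 on LZ arrays, with 13 of 19 below the median everywhere. Stromal and follicular dendritic cell markers were at 5.02 to 5.13 against 5.09 to 5.24. None of the tested genes of these lists or of those for natural killer cells, basophils and mast cells, or neutrophils and eosinophils was called (1.22% over all genes). Of these lists 8 of 10 natural killer, 8 of 10 basophil and mast cell, 6 of 10 neutrophil and eosinophil and 7 of 15 stromal markers were below the median on every zone array, among them Ncr1, Mcpt8, Fcer1a and Cxcl13. Prf1, Gata2, Siglecf, Tyrobp, Cd68, Flt3, Zbtb46, Col1a1, Col1a2, Col3a1 and Pecam1 were above it on at least 3 arrays. The neutrophil gene S100a8 was between 3.50 and 3.72 on the 6 GFP+ arrays, and at 6.45 and 5.40 on replicate 3 of GFP- DZ and LZ cells. The part of RNA from these cells in the zone differences was not tested.

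The transcription factors that define GC cells did not pass in most cases. Bcl6, the master repressor of the GC, was at 10.94, 10.91 and 11.01 in DZ and at 10.96, 10.93 and 10.92 in LZ arrays (0.02, 95% interval -0.29 to 0.32, adjusted p = 0.984). Foxo1, which is required for the dark zone, was at 8.75, 9.12 and 8.73 against 8.84, 8.86 and 8.66 (0.08, 95% interval -0.22 to 0.38, adjusted p = 0.888). Without DZ replicate 3 the Bcl6 difference was -0.015, and without DZ replicate 2 that of Foxo1 was -0.046. Myc, which marks LZ cells selected to divide again, was at 9.15, 9.54 and 9.34 against 9.73, 9.70 and 9.95 (-0.45, 95% interval -0.78 to -0.12, adjusted p = 0.217). Its arrays lay apart, as those of 9.22% of all genes did in this direction. None of 25 MYC and growth genes was called (1.22% over all genes), with a median of -0.06. Of 29 tested GC factors and cofactors 1 was called (1.22% over all genes). Hhex, a homeobox factor known from memory B cell formation, was at 4.57, 5.26 and 5.07 against 7.09, 6.13 and 6.03 (2.73-fold, -1.45, SE 0.31, adjusted p = 0.0389). All 3 DZ values of Hhex lay below their array medians, so its fold is set against a level near the floor of the filter, and it lost its call without any 1 of the 6 GFP+ arrays (-1.64 to -1.12, adjusted p up to 0.144). None of 22 genes of the BCL2 family and apoptosis was called (1.22% over all genes), with Bcl2 at -0.62 and Mcl1 at -0.05.

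The same sort without GFP gave similar zone differences. In GFP- cells 286 genes were called, 2.59% of those tested, split into 176 with more signal in DZ (1.59%) and 110 with more in LZ cells (0.995%). The GFP+ and GFP- comparisons used different arrays but 1 estimate of the spread. In all 89 genes were called in both, which is 65.9% of the GFP+ and 31.1% of the GFP- calls, and all 89 had the same direction. Of the 135 genes called in GFP+ cells, 134 had the same sign in GFP- cells, against 64.3% of all genes tested. Their median difference was 0.99 in GFP+ and 0.98 in GFP- cells for the DZ-higher genes, and -0.97 and -0.76 for the LZ-higher ones. Serpinb1a (-2.33), Ryr2 (-2.22), Dock10 (-1.45) and Hmces (1.71) were called in GFP- cells too. The split of GFP- calls depended on scaling, being 131 towards DZ and 154 towards LZ after a further quantile normalization and 269 and 94 after centring each array. The GFP- count of 286 fell to 105 and 130 without GFP- DZ replicate 1 or 3, and to 102 and 127 without GFP- LZ replicate 2 or 3.

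The difference between these comparisons was tested as an interaction, and in limma no gene passed at an adjusted p under 0.05, with 542 of 11050 genes at an unadjusted p under 0.05. For genes called only in GFP- cells, such as Plk1 (1.09 in GFP+, 1.60 in GFP-) and Nek2 (1.00 and 1.77), a difference between the populations was therefore not shown. Reading the GFP- calls in the GFP+ arrays, which had no part in those differences, 168 of 176 DZ-higher genes lay above 0 and 108 of 110 LZ-higher genes below 0. Their medians in GFP+ cells were 0.53 and -0.81, against 0.93 and -0.93 in GFP- cells, where they were selected. In the G2/M list the median was 0.49 in GFP+ and 0.82 in GFP- cells, where 32 of 63 genes were called, and the gene by gene interaction was called for none. Ccnb2, for example, differed by 0.86 and 1.53 (interaction -0.67, unadjusted p = 0.019). Msmo1 differed by -0.89 in GFP+ and -0.16 in GFP- cells (interaction -0.73, unadjusted p = 0.0108). The genes with the smallest interaction p among those called in either population were Polr2f, a shared subunit of RNA polymerases (-0.52 in GFP+, 0.84 in GFP-), the chaperone-associated Uxt (-0.33 and 1.00), the mitochondrial deubiquitinase Usp30 (-0.39 and 1.00), Arhgap19 (0.24 and 1.36) and the sialyltransferase St6galnac4 (0.16 and -0.77). Each was called in GFP- and not in GFP+ cells, and their unadjusted interaction p-values ran from 4.49e-05 to 0.0022.

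**Figure D4:**
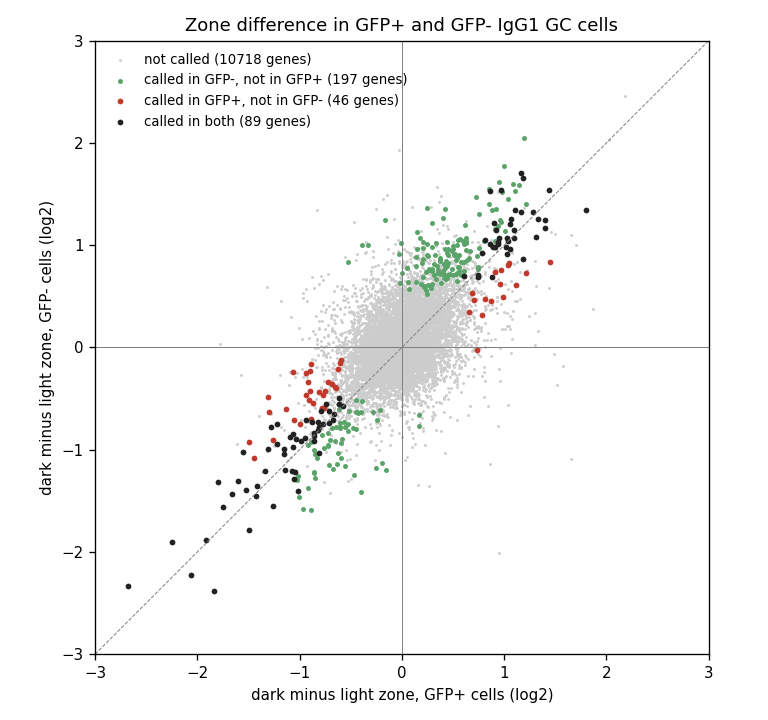
DZ minus LZ log2 difference of all 11050 tested genes in GFP+ cells (x axis) and GFP- cells (y axis), with called genes coloured by the population in which they passed. Of the 135 genes called in GFP+ cells, 134 have the same sign on both axes.

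The zone genes were then read in the study's other experiment, whose arrays had no part in the zone comparison. There 12097 genes were tested, including all 135 zone genes. Naive and plasma cells were each set against GFP+ IgG1 GC cells not separated by zone, so both contrasts share the 3 GC arrays. Zone genes had to lie above the median on zone arrays, all of them GC cells. The 12097 genes had to do so on any arrays of the other experiment, naive and plasma cells included. The shares over all genes beside the naive and plasma counts thus come from an unlike set. How far this filter moves the counts was not tested. Of the 53 DZ-higher genes, 41 were lower in naive than in GC cells (16.8% over all genes) and 1 was higher (6.42% over all genes), with a median of -1.54. The gene that was higher was Mylip, a ubiquitin ligase that degrades the LDL receptor (1.16, adjusted p = 0.011). Gcsam was at 4.47 ± 0.12 in naive and at 9.83 ± 0.31 in GC cells (SD, n = 3 each), a difference of -5.36 (limma adjusted p = 3.82e-11). Aspm (-3.52) and Lig4 (-1.76) were likewise lower in naive cells, whereas Mcoln2 was not called (0.36). After a further quantile normalization or without naive replicate 1 the number of DZ-higher genes called higher in naive cells was 2.

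Of the 82, 32 (39%) were higher in naive than in GC cells, against 6.42% of all genes, and 9 (11%) were lower, against 16.8% of all genes, with a median of 0.44. Zfp318 was at 10.64 ± 0.32 in naive and at 6.42 ± 0.06 in GC cells (SD, n = 3 each), a difference of 4.22 (limma adjusted p = 1.54e-09). Serpinb1a (2.75), Lrrk2 (2.19), Capg (2.17), Dock10 (1.42) and Cd72 (1.25) were also higher in naive cells. The sort marker Cd86 (-2.50), S1pr3 (-1.52), Slamf1 (-1.17) and Ryr2 (-0.91) were lower in naive than in GC cells. The inducible genes Egr2 (-0.36) and Nr4a1 (0.20) were not called.

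In plasma cells most light zone genes were low. Of the 82, 53 were lower in plasma than in GC cells (13.1% over all genes) and 3 were higher (8.31% over all genes), with a median of -1.56. Cr2 was at 4.88 ± 0.52 in plasma (SD, n = 2) and at 9.74 ± 0.33 in GC cells (SD, n = 3), a difference of -4.86 (limma adjusted p = 1.82e-09). The sort marker Cd86 (-5.23), Fcer2a (-4.49) and Cd83 (-3.57) were lower as well. The genes that were higher were Ccnd2 (3.55), Capg (2.32) and Map3k1 (1.49). Of the 53 DZ-higher genes 20 were lower in plasma cells, led by Gcsam (-3.97) and Mirt1 (-2.52), and 6 were higher. Among the 6 were Jchain (1.79) and Mcoln2 (1.26). Without plasma cell replicate 1 the number of DZ-higher genes called higher in plasma cells was 3.

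**Figure D5:**
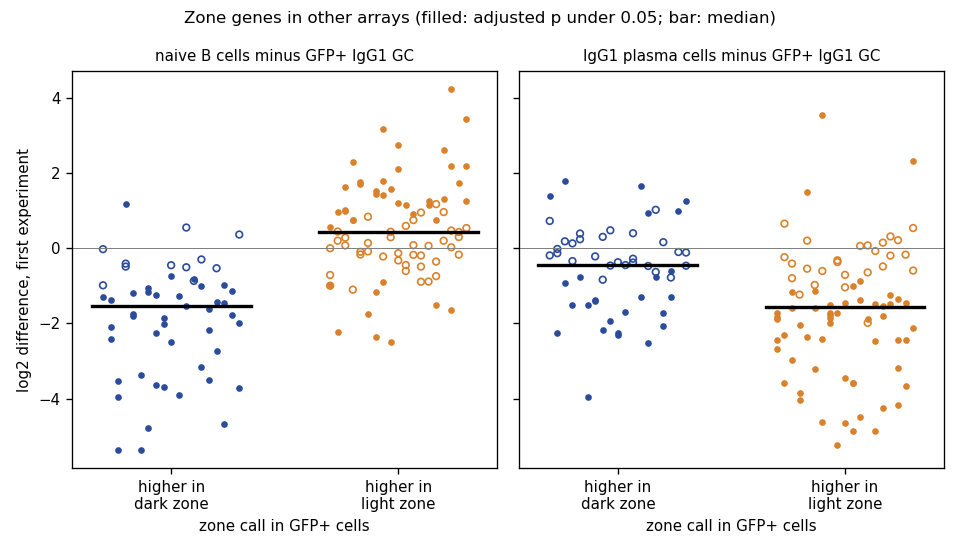
Log2 difference of the 53 DZ-higher and 82 LZ-higher genes between naive and GFP+ IgG1 GC cells and between GFP+ IgG1 plasma cells and the same GC cells, 1 point per gene (filled where called) with a bar at the median. The DZ-higher genes lie mostly below 0 in naive cells (median -1.54), and the LZ-higher genes mostly below 0 in plasma cells (median -1.56).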

How the data were processed

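The authors deposited log2 expression values of Affymetrix Mouse Gene 1.0 ST arrays. The submitters' processing notes name RMA and R 2.15.2. From 2 ng of RNA per sample, SPIA amplification made cDNA, of which 5 ug went to labelling, per the labels. Amplification from little RNA can distort low values. A shared normalization of all arrays and any batch or date are not given in the sources used here. Of 34760 probe sets, 21640 have 1 symbol in GEO's annotation, 1321 several and 11799 none. Only the first kind was used, and 21553 of them were matched to RefSeq by gene ID. For a gene with several probe sets the one with the highest mean over the arrays was kept.

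The 12 zone arrays were fitted in limma 3.58.1 (R 4.3.3) with 1 mean per group and no covariate. The 18 arrays of the other experiment were fitted likewise, a reading added after seeing the data. Groups came from sample titles, and p-values measure the spread between pools from separate sorts. Genes named are the 12 largest called differences in each direction, up to 4 called genes per list, 18 GC genes whatever their values, and 5 genes by interaction p. Others named beside them were chosen after their values were seen. Members and lists were chosen with earlier results of these data known. Lists held 706 genes, 549 of them tested.

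Whether replicate numbers pair the arrays is unknown. Of 18 same-numbered pairs, all had deviations correlated above 0 (0.0024 to 0.2) but only 4 over 0.1, so no block was used. Alternatives changed normalization, filter, probe set choice, variance model, arrays fitted, the block and each array. In all 16 motifs were searched in promoters on both strands: the cell cycle genes homology region (TTTGAA), the CCAAT box (CCAAT), the EGR motif (GCGNGGGCG), the cyclic AMP response element (TGACGTCA), the core part of it (TGACG, which overlaps it), the MYC E-box (CACGTG), the NFAT core (TGGAAA), the PU.1 motif (GAGGAAGT), the AP-1 motif (TGANTCA), a first E2F motif (TTTCCCGC), a second E2F motif (TTTGGCGC), the FOX motif (TGTTTAC), the E2A E-box (CAGGTG), and by name the NF-kB, serum response and interferon response consensus. Scripts were tested on simulated data. Figures used matplotlib 3.10.9.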

Additional observations from a re-analysis of the deposited data

Results flagged for a closer look

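Polr2f, a subunit shared by the RNA polymerases, had zone differences of opposite sign in the GFP+ and GFP- populations, of which only the GFP- one passed the test. In GFP+ cells it was at 8.03, 7.97 and 7.61 in DZ and at 8.32, 8.49 and 8.36 in LZ arrays, a difference of -0.52 (limma adjusted p = 0.159, and 0.108 to 0.385 over the settings run), while in GFP- cells the difference was 0.84 (limma adjusted p = 0.016). All 3 DZ arrays lay below all 3 LZ arrays in the first population and above them in the second. The interaction was -1.36, with an unadjusted p of 4.49e-05 in limma that did not pass adjustment over all genes. Such an opposite separation occurred in 28 of 11050 genes.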

How the results depend on the processing

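The GFP+ count of 135 was 123 to 161 under the 8 planned settings that changed scaling, filter, probe set choice, variance model or array weights or added a block, 17 with only the GFP+ arrays fitted, 51 to 88 without any 1 GFP+ array and 124 to 164 without any 1 GFP- array. With the replicate block it was 154 (324 in GFP- cells, 0 for the interaction). The 6 GFP+ arrays with the replicate block, added after seeing the data, gave 4. In deviations from group means, each of the 6 GFP+ arrays correlated best with its own number among the GFP+ arrays of the other zone. These correlations were weak (0.0651 to 0.098) and are a hint from the data and not the design. The GFP- count of 286 was 474 with array weights, 136 with only the GFP- arrays and 102 to 288 without any 1 array. The interaction gave 0 genes in each setting run. Bcl6 (-0.015 without DZ GFP+ replicate 3, to 0.038 without DZ GFP+ replicate 2) and Foxo1 (-0.046 without DZ GFP+ replicate 2, to 0.153 without DZ GFP+ replicate 3) changed sign. Called in all planned settings other than the fit of the GFP+ arrays alone were 38 genes (12 DZ-higher, 26 LZ-higher). With the replicate block 11 G2/M genes were called (7 as reported). The number of arrays limits all of these counts, and their probe signal limits genes near the array median.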

Other observations

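Among the 39 genes that stayed called without any 1 GFP+ array, 12 were not described above and are given here, chosen after their values were seen. Higher in DZ cells were Smarca4, Tgfbr1 and Knstrn. Smarca4, the ATPase of the BAF chromatin remodelling complex, was at 10.45, 10.22 and 10.23 in DZ and at 9.48, 9.31 and 9.29 in LZ arrays (1.92-fold, limma adjusted p = 0.00656). Tgfbr1, a receptor kinase for transforming growth factor beta, was at 8.84, 9.01 and 8.77 against 7.93, 7.47 and 8.01 (2.10-fold, limma adjusted p = 0.00656). Knstrn, a kinetochore and spindle protein, differed by 1.10. Each was also called in GFP- cells, by 1.02, 1.25 and 1.15.

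Higher in LZ cells were the adaptors Samsn1 and Sh3bp2 and the kinases Map3k1 and Plk3. Samsn1, which dampens B cell activation, was at 8.47, 8.69 and 8.50 in DZ and at 9.56, 9.69 and 9.63 in LZ arrays (2.11-fold, limma adjusted p = 0.00342). Sh3bp2 differed by -1.31, Map3k1, a kinase downstream of CD40, by -0.85, and Plk3, a stress-responsive relative of the mitotic polo kinase, by -0.98. The values for Plk3 ran opposite to those for Plk1 (1.09). The nuclear envelope gene Syne1 (-0.95), the histidine and peptide transporter Slc15a3 (-0.94), Syngr2 (-0.91), Tm6sf1 (-1.28) and Bcl2a1c (-1.26) were the others. Bcl2a1c is one of several close copies of a survival gene, so its probe sets may read more than 1 of them. In GFP- cells Slc15a3 (-0.25) and Syngr2 (-0.51) were not called, and a difference between the populations was not called for either.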
